A study of Homo sapiens with 6 samples.

Results

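The genes described here are the 2 receptors for tumor necrosis factor (TNFRSF1A and TNFRSF1B), the adaptors TRAF1 and TRAF2, the ubiquitin ligases BIRC2 and BIRC3, and 4 genes named for their induction by TNF (TNFAIP2, TNFAIP3, TNFAIP6 and TNFAIP8). The 10 genes were taken by symbol from a fixed list, and all 10 were found among the 19792 genes of the deposited table. The cells were BT-549, a human triple-negative breast cancer line. They carried a WDR5 shRNA in a doxycycline-inducible vector with puromycin resistance, and WDR5 is a core subunit of the COMPASS complexes that methylate histone H3 at lysine 4. RNA-seq covered 3 cultures given vehicle (0.1% DMSO) and 3 given 500 ng/ml doxycycline (DOX), for 7 days by the paper's text. All 6 cultures carry the shRNA vector, and libraries of cells with a control shRNA or without the vector were not analysed here.

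The value analysed was the authors' mean normalized count of each gene, which is 1 mean over the vehicle and the DOX libraries together. It is therefore the level of neither group alone. DOX was not compared with vehicle here, since values of single cultures were not analysed and the columns of the authors' own comparison were not used. The mean carries no error, so neighbours in an order of levels cannot be told apart from equal ones, and no test is given. Silencing of WDR5 could not be checked either, and its mean normalized count over both groups was 1143.

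TNF is an inflammatory cytokine that binds 2 receptors on the cell surface. The engaged TNFRSF1A recruits TRADD and RIPK1, and TRAF2 then brings in BIRC2 and BIRC3, which attach ubiquitin chains that gather the kinases of the NF-κB pathway. NF-κB in turn drives genes of the same circuit, among them BIRC3, TRAF1 and TNFAIP3, and the TNFAIP3 product (A20) edits the ubiquitin chains and limits the signal. Cancer cells with persistent NF-κB activity can express parts of this circuit without added cytokine.

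Short stretches of promoter sequence are shown because NF-κB and AP-1 are among the transcription factors that the study examined in these cells. Promoter windows of 300 bases (250 before the transcript start and 50 from it on) were taken from RefSeq on GRCh38.p14, where the 10 genes have 15 start sites between them. Each window was searched on both strands for the NF-κB consensus, a motif of 10 bases, and for the AP-1 motif TGANTCA. The NF-κB consensus was GGGRNNYYCC, where R is A or G, Y is C or T and N is any base. The matches that were found are printed below from 5′ to 3′ on the strand of the gene, with the matched bases in capitals and 10 bases of flank on each side.
BIRC3, chr11:102317275-102317304 (+): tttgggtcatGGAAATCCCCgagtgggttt
BIRC3, chr11:102317339-102317368 (+): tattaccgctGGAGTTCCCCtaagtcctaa
TNFAIP3, chr6:137867182-137867223 (+): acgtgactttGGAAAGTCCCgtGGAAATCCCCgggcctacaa
TNFAIP6, chr2:151357453-151357479 (+): ccaatgcaaaTGAGTCAgaggatttgc

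The NF-κB consensus was matched in the windows of BIRC3 and TNFAIP3, with 2 matches in each. All of these matches read on the strand opposite to the gene, so the capitals above show the reverse complement of the consensus. In BIRC3 the matches began 199 and 135 bases before the start. In TNFAIP3 they began 67 and 55 bases before it and so lie side by side. These are 2 of the 15 windows, or 13.3%, where 11.3% of 35116 RefSeq windows hold at least 1 match. The AP-1 motif was matched once, in TNFAIP6, 129 bases before the start, and this is 6.67% of the 15 windows beside 7.71% of all windows. The shares of the 15 windows, of which the 2 of BIRC2 overlap, were thus near those of promoters in general. The 3 windows of TRAF1 held neither motif, which says nothing about sequence outside these 300 bases. A match is a run of letters, and neither binding nor chromatin was measured in these libraries.

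**Figure D1:**
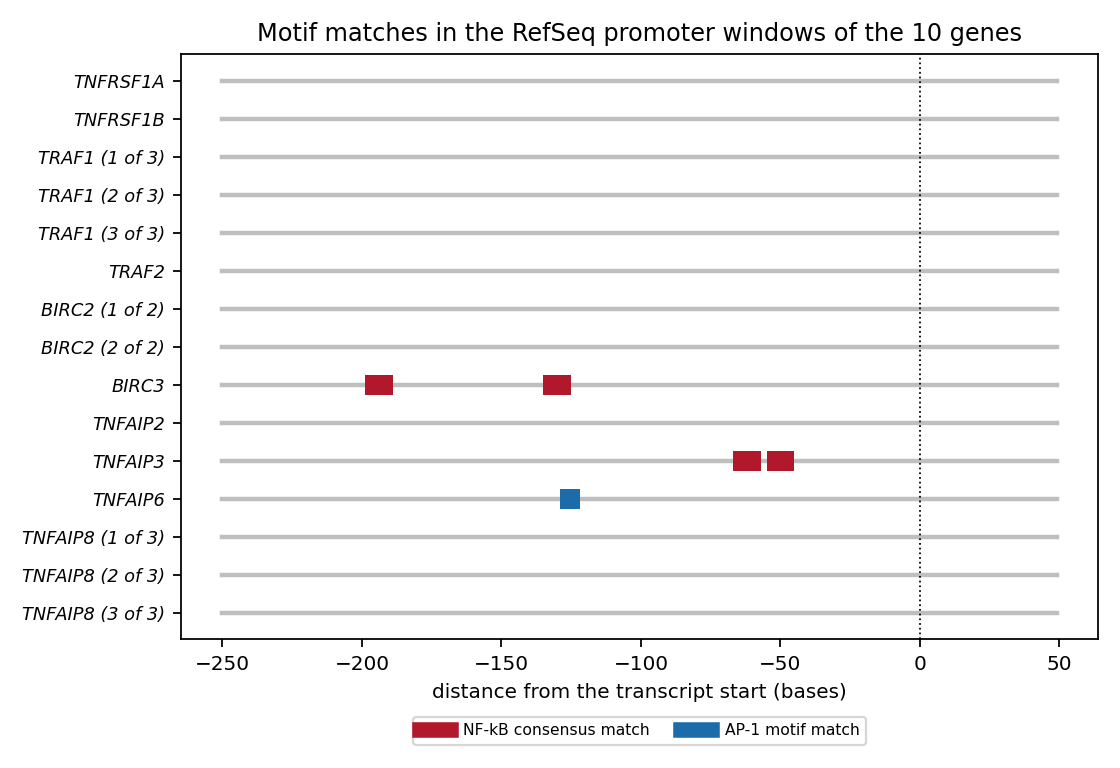
Matches to the NF-κB consensus (red) and the AP-1 motif (blue) in the 15 RefSeq promoter windows of the 10 genes, plotted by distance from the transcript start in bases. Genes with several start sites have a line for each. Matches are present in BIRC3, TNFAIP3 and TNFAIP6, and the other windows hold none.

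The windows also differed in base composition. The median share of G and C over all RefSeq windows was 58.7%, with quartiles of 47.0% and 68.0%. Above the upper quartile lay the single windows of TNFAIP2 (75.7%), TNFAIP3 (73.7%), TRAF2 (73.3%) and TNFRSF1B (72.0%). The 3 windows of TRAF1 had 56.7%, 54.0% and 71.3%, and those of TNFAIP8 had 74.0%, 30.0% and 66.3%, so that the poorest of the 15 windows was one of TNFAIP8. TNFAIP6 had the window poorest in G and C among the genes with a single start site, at 37.0% and with 2 CG steps. BIRC3 and TNFRSF1A lay near the median, at 53.3% and 55.7%. BIRC2, the paralog of BIRC3, had 2 windows with 68.7% and 74.0% and no match to either motif.

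To compare levels between genes, the mean normalized count was divided by the joined length of all exons and scaled so that the 18630 genes with a length sum to 1000000. The result is named the per-million level. A gene was taken as present where its mean over the libraries reached 10, which holds for 13548 genes, or 68.5% of those listed, with a median per-million level of 22.9. All 10 genes were present, and all 10 also had a mean of at least 50, which 58.9% of all listed genes reached. Their sum of mean normalized counts was 16949.7 of 26551206 over all genes, or 0.0638%, and TNFRSF1A alone gave 43.7% of the sum of the 10. The per-million level of the highest, TNFRSF1A, was 135 times that of the lowest, TNFAIP2. TNFRSF1A, BIRC2, TNFAIP8 and TNFRSF1B lay above the median of present genes, and the other 6 lay below it.

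**Figure D2:**
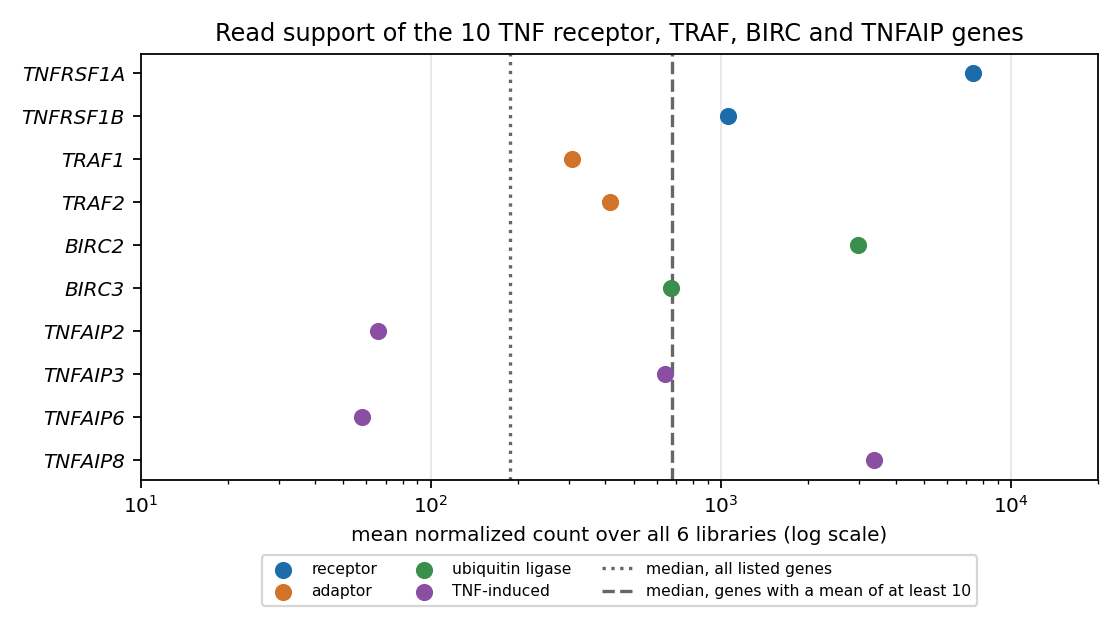
Mean normalized count over all 6 libraries (log scale) for each of the 10 genes, colored by role. The dotted line is the median of all 19792 listed genes (187) and the dashed line that of the 13548 present genes (677). TNFAIP2 and TNFAIP6 are the only ones of the 10 left of the dotted line, and TNFRSF1A at 7403 is farthest to the right.

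Of the receptors, TNFRSF1A had the higher level. TNFRSF1A carries a death domain and is expressed by most cell types, and it lies on chromosome 12 of GRCh38 from 6328757 to 6342114 on the minus strand (GENCODE 44). Its mean normalized count was 7403 and its per-million level 318, at the 97.1 percentile of all genes with a length. TNFRSF1B, which lacks a death domain, binds TRAF2 directly and is known mainly from immune and endothelial cells, lies on chromosome 1 from 12166991 to 12209228 on the plus strand. Its mean normalized count was 1058 and its per-million level 50.6, at the 78.5 percentile. The per-million level of TNFRSF1A was thus 6.29 times that of TNFRSF1B, and the ratio ran up to 11.9 when the canonical transcript gave the length. Of 19 receptor genes in the table that share the symbol stem TNFRSF, 12 were present. TNFRSF1A had the highest per-million level of the 19, ahead of TNFRSF12A (150.0), TNFRSF21 (149) and TNFRSF10B (133), and TNFRSF1B was number 5 in the order.

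The ligand genes of the pathway list were near the lower limit of the table. TNF and LTA encode ligands of these receptors, whereas LTB acts with LTA mainly on another receptor. The mean normalized count of TNF was 1.22, that of LTA (lymphotoxin alpha) 0.334 and that of LTB (lymphotoxin beta) 0.144. None of the 3 was present by the limit of 10, and their per-million levels were 0.131, 0.0347 and 0.0169. Both receptors thus stood far above all 3 ligands on the same per-length scale. Cytokine from serum or in the medium is not seen by RNA-seq.

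The adaptors TRAF1 and TRAF2 had modest levels. TRAF2 is a RING adaptor that bridges the receptors to BIRC2 and BIRC3, and it lies on chromosome 9 from 136881912 to 136926607 on the plus strand. TRAF2 had a mean normalized count of 415 and a per-million level of 20.4, at the 62.5 percentile. TRAF1 is the family member without a RING domain, is a known NF-κB target, and lies on chromosome 9 from 120902393 to 120929173 on the minus strand. Its mean normalized count was 308 and its per-million level 12.4, at the 54.6 percentile. The ratio of TRAF2 to TRAF1 per length was 1.65, and it lay between 1.12 and 2.59 depending on the length used. With no error on either mean, a difference between the adaptors cannot be shown. All 7 TRAF genes were present, with TRAF7 highest at a per-million level of 72.1 and TRAF5 lowest at 4.49. TRAF4 (24.6), TRAF2 and TRAF3 (19.6) followed TRAF7, and TRAF1 was number 5, ahead of TRAF6 (8.59).

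BIRC2 and BIRC3 (cIAP1 and cIAP2) are closely related ubiquitin ligases that hold back cell death at the receptor and also keep the alternative NF-κB pathway off. The genes are neighbours on chromosome 11, both on the plus strand, with BIRC3 from 102317484 to 102339403 and BIRC2 from 102347211 to 102378670. The 7807 bases between them hold 1 annotated gene, which does not code for protein. BIRC2 had a mean normalized count of 2958 and a per-million level of 118, at the 90.4 percentile. Its place among the 10 was number 2 per joined exon length, and number 3 by count and by coding length. BIRC3, whose promoter window holds the pair of NF-κB matches above, had a mean normalized count of 674 and a per-million level of 16.3, at the 58.6 percentile. BIRC2 was thus at 7.27 times BIRC3 per length, or between 4.29 and 8.02 times depending on the length. Only 11 of 3715 runs of 50 bases in the canonical BIRC2 transcript (0.296%) also occur in BIRC3. Of 5 genes of this family by symbol (BIRC2, BIRC3, BIRC5, BIRC6 and XIAP), BIRC2 was the highest per length and BIRC3 the lowest, and XIAP, a direct inhibitor of caspases, stood at 60.6.

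The 4 TNFAIP genes share a name and no known common function, and their levels were far apart. TNFAIP8 belongs to a small family of lipid-binding proteins and has been linked to cell survival, and it lies on chromosome 5 from 119268692 to 119399688. TNFAIP8 had a mean normalized count of 3368, and its per-million level was 71.5, at the 84.1 percentile. TNFAIP3 encodes A20, which edits ubiquitin and restrains NF-κB, and lies on chromosome 6 from 137867214 to 137883314. Its mean normalized count was 643 and its per-million level 18.0, at the 60.3 percentile. Its neighbours among the 10 were BIRC3 (16.3), with NF-κB matches in its window, and TRAF2 (20.4), with none.

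TNFAIP6 and TNFAIP2 had the lowest levels of the 10. TNFAIP6 encodes TSG-6, a secreted protein that binds hyaluronan, and lies on chromosome 2 from 151357592 to 151380046. TNFAIP6 reached a mean normalized count of 57.8 and a per-million level of 6.62, at the 46.7 percentile. TNFAIP2, which takes part in forming membrane protrusions, lies on chromosome 14 from 103121476 to 103137439, and its mean normalized count was 65.9. By count TNFAIP2 stood above TNFAIP6, but its exons are longer (5058 joined bases against 1577), and per length it was lower at 2.35, the 37.3 percentile. TNFAIP8 was at 3.96 times TNFAIP3, 10.8 times TNFAIP6 and 30.4 times TNFAIP2 per joined exon length. These ratios depended strongly on the length, and by coding length they were 20.9, 81.5 and 169. Of the TNFAIP8 paralogs, TNFAIP8L1 was at a per-million level of 18.7 and TNFAIP8L3 at 1.58, and TNFAIP8L2 was not listed under that symbol. TNFAIP1, which shares only the name, was at 79.2.

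**Figure D3:**
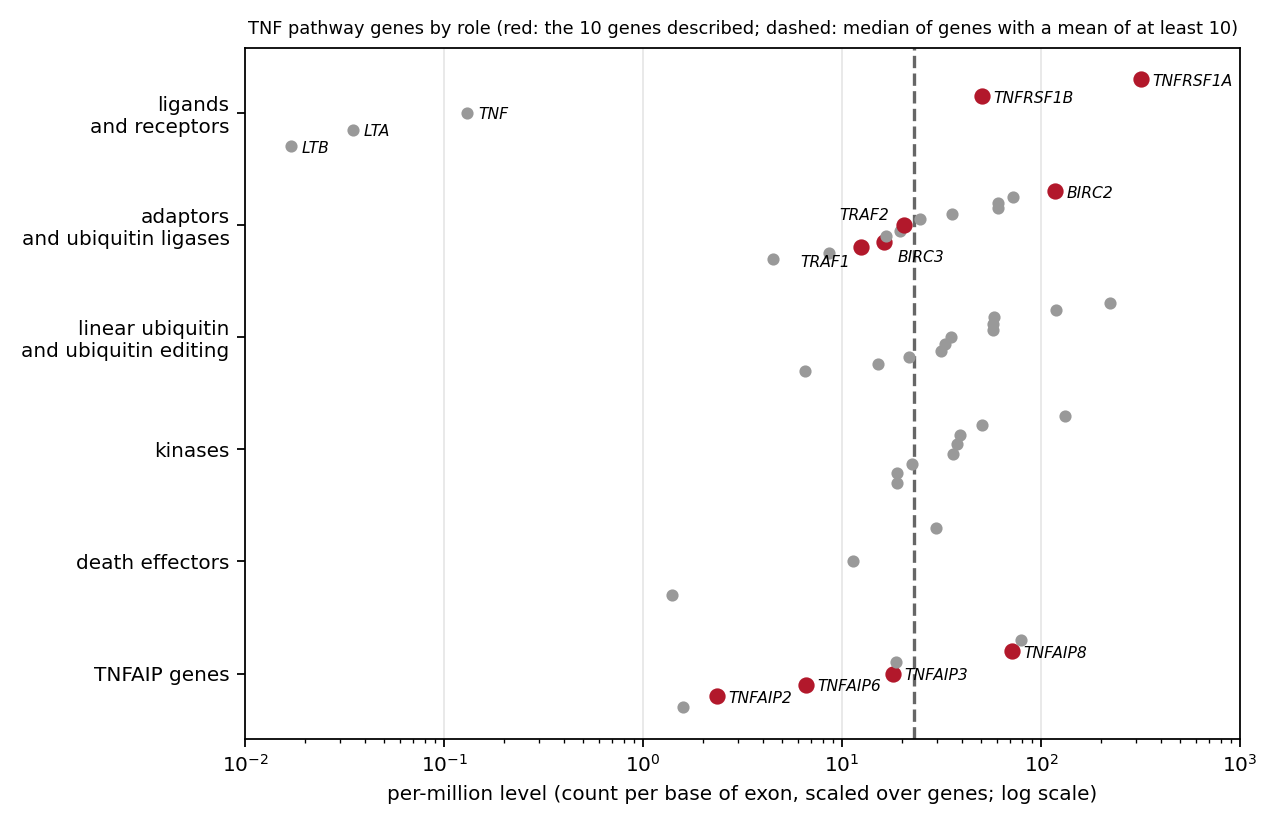
Per-million level (log scale) of 47 TNF pathway genes in 6 role groups, with the 10 genes described in red and the others in grey. The dashed line is the median of present genes (22.9). The 3 ligands lie below 1, far left of both receptors, and the red points span from TNFAIP2 at 2.35 to TNFRSF1A at 318.

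The 10 genes were set beside a longer list of the pathway. Of 49 genes in the list, 47 were in the table and 44 were present. The median per-million level was 24.6 over the 47 genes, 29.7 over the 37 that are not among the 10, and 19.2 over the 10. Above the median of present genes lay 4 of the 10 and 20 of the other 37. In the order of the 47 genes by per-million level, TNFRSF1A was number 1, BIRC2 number 5 and TNFAIP8 number 8, while TNFAIP6 and TNFAIP2 were numbers 39 and 42. The other adaptors included RIPK1 at 35.7, FADD at 60.4 and TRADD at 16.7, the lowest of its group by count. Genes of the linear ubiquitin and editing group ran from TNIP3 at 6.54 to RNF11 at 222, and all 11 were present. All 8 genes of the kinase group were present as well, from TAB3 at 18.8 to TAB2 at 132. TAB1, TAB2, TAB3 and IKBKG in this group are partners of kinases and not kinases themselves. In the death effector group, CASP8 was at 29.7 and MLKL at 1.39, and RIPK3 was not listed under that symbol. CFLAR, listed in the same group but known mainly as an inhibitor of cell death, was at 11.4.

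The level per length depends on which length is used. TNFAIP8 is the extreme case, since its joined exons span 8506 bases and its coding sequence 594. Its per-million level was 71.5 by joined exons, 47.6 by the canonical transcript and 233 by coding length, which would place it above TNFRSF1A at 222. With each of the other lengths TNFRSF1A was the highest of the 10. TNFAIP2 was the lowest with all 4 lengths, and TNFAIP6 the next lowest.

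**Figure D4:**
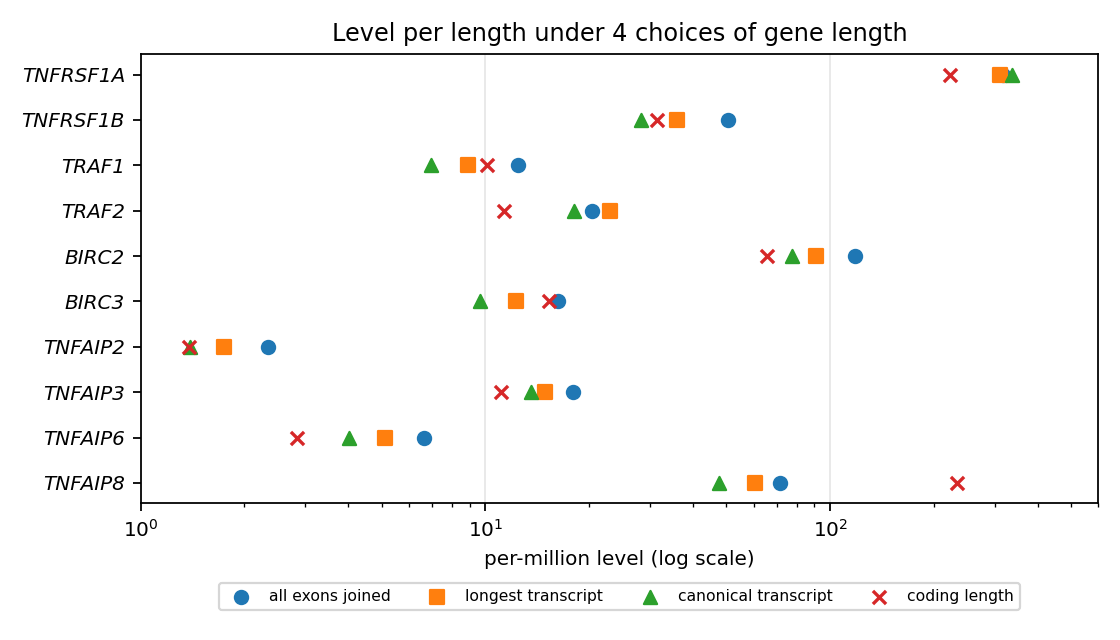
Per-million level (log scale) of the 10 genes with 4 choices of length, which are all exons joined, the longest transcript, the canonical transcript and the coding sequence. TNFAIP8 has the widest range, from 47.6 to 233. TNFRSF1A lies between 222 and 336, and TNFAIP2 between 1.38 and 2.35. Each length has its own scaling over all genes, so these ranges do not reflect the length of the gene alone.

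Reads could be shared with other genes only in part. Runs of 50 bases from the canonical transcripts of TNFRSF1A, TRAF1, TRAF2, TNFAIP2, TNFAIP3 and TNFAIP6 were found in no transcript of another gene. The share found elsewhere was 0.440% for TNFRSF1B and 0.765% for TNFAIP8. In the annotation, long non-coding RNAs on the opposite strand overlap BIRC3, TNFAIP2 and TNFAIP3 (WAKMAR2 in the case of TNFAIP3), and short non-coding RNAs on either strand overlap TNFRSF1B, TRAF2, TNFAIP6 and TNFAIP8. Of all these overlapping genes only MIR4479, within TRAF2, is listed in the table, with a mean normalized count of 0.781. The library kit keeps strand, but whether the counting used it is not stated.

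Markers were used to check the label of the cell line. The mean normalized counts of VIM, FN1, ZEB1 and CDH2, genes of mesenchymal cells, ran from 4093 to 47782. Those of ESR1 and PGR, the hormone receptors that triple-negative cells lack, were 0.790 and 0.801, and ERBB2, which is expressed but not amplified in such cells, was at 1221. The epithelial genes EPCAM and CDH1 were at 1.30 and 59.6. Of the genes listed for leukocytes and endothelium, PTPRC was at 44.7, CD68, a lysosomal gene that tumor cells also express, at 1813, PECAM1 at 2.86 and CDH5 at 0.172, and CD3E was not analysed here.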

How the data were processed

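RNA was measured in 6 cultures of 1 inducible line. By the paper's methods, the authors prepared stranded poly(A) libraries, aligned reads to GRCh38 with STAR, and normalized gene counts with DESeq2. The gene counter, its strand setting, the annotation and the read length are not given in the sources used here. The labels name a column kit for RNA isolation and the paper names Trizol.

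The value used was the mean normalized count, a signal that the authors computed over all 6 libraries and deposited as 1 value per gene. The table also holds 5 columns of the authors' own comparison of DOX with vehicle (a log2 fold change, its standard error, a statistic, a p-value and an adjusted p-value), which were not used. Values of single cultures were not analysed here, so no test, error or depth per library is given, and the test of DOX against vehicle that had been planned for per-culture values was not run.

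The per-million level divides the mean normalized count by the length of all exons of the gene joined (GENCODE 44) and scales the result so that all genes with a length sum to 1000000. Of 19792 symbols, 17921 matched GENCODE ignoring case, 709 matched through a RefSeq synonym, and 1162 (1.13% of the summed counts) did not match. Percentiles are the share of genes at or below a value. Motif matches were read on both strands of RefSeq promoter windows (GRCh38.p14). Transcript runs of 50 bases shared between genes were counted in GENCODE 44 transcripts. The length scaling, percentiles and motif search were tested on simulated data. Named genes were the 10 members, the extremes of each role group of a fixed pathway list, the members' paralogs and TNFAIP1, the ligands, WDR5 and the cell type markers. FADD, RIPK1, CASP8, the families sharing a symbol stem (TNFRSF, BIRC) and the transcript-length choices were added after values were seen. The members and lists were chosen with earlier results of these data known. Computation used Python 3.11.15, numpy 2.4.6, pandas 2.3.3 and matplotlib 3.10.9.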

Additional observations from a re-analysis of the deposited data

How the results depend on the processing

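No paired analysis was possible because values of single cultures were not analysed here, and for the same reason another normalization, another pseudocount, a filter before testing and leaving out a culture were not run. Protein identity was not computed, since no protein table was used. Values here have no replicate spread, so a change by over 1.5 times was taken as a move. The place in the order by level changed for 6 of the 10 genes when the mean normalized count replaced the per-million level, for 6 with coding length, and for 0 with the canonical transcript. The canonical and the longest transcript were chosen as lengths after seeing the data. The coding length moved the per-million level by over 1.5 times for 7 of the 10 genes and the canonical transcript for 7, whereas the longest transcript moved 0. The scaling was redone with each length, so these moves also hold a shift that comes from the lengths of all other genes. TRAF1 fell from 12.4 to 6.98 with the canonical transcript, while its own length went only from 4476 to 4351 bases. Percentiles moved by over 1.5 times for 3 genes (TRAF1, TNFAIP2 and TNFAIP6) when only genes with a mean of at least 10 were ranked, and for 0 when genes were ranked per length. Of the 47 pathway genes in the table, 44 had a mean of at least 10 and 42 at least 50. The shares over all listed genes were 68.5% and 58.9%. The NF-κB and AP-1 matches (2 genes and 1 gene) all lie before the start, so leaving out the bases after it changed neither count.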
